A study of Homo sapiens with 12 samples.

Results

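The deposited microRNA count table held 2909 entries, of which 860 carried no database name. These predicted entries are named by a chromosome, a running number and an arm, and 34 of them were listed in no library. Members were the predicted entries whose counts summed to at least 20 over the 12 libraries. This gave 393 entries, and 13 of them were dropped because another predicted entry had the same 12 counts, which left 380. The summed count therefore chose the members, and their levels are a description. Just inside the threshold lay chr10_2468 and chr12_9343 with 20 counts each, and just outside it chr12_9082 and chr14_13813 with 19 each. The prefix shared by the names is left out here.

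MicroRNAs are short RNAs cut from hairpin precursors, usually by Drosha in the nucleus and Dicer in the cytoplasm. The product of the 5′ arm is called 5p and that of the 3′ arm 3p, and bases 2 to 8 of the mature RNA, the seed, do most of the pairing with target messages. Programs that predict microRNA loci look for reads stacked on one arm of a possible hairpin. Such a locus can be a microRNA missing from the database, an offset product or a copy of a known one, or a fragment of a transfer, nucleolar or repeat RNA. A name alone does not tell these apart.

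HGC-27 and AGS are established human gastric cancer cell lines. For 24 h each was given SAHA at 5 µM, or DMSO alone, the solvent, and small RNA was sequenced from 3 replicates of each of the 4 groups. SAHA (vorinostat) inhibits histone deacetylases, enzymes that remove acetyl groups from histones, and the series asks how it changes microRNAs in such cells. The labels do not say whether replicates were separate cultures, and the spread behind every p-value may therefore be technical. Total counts per library ran from 2665109 to 6525388, with an annotated microRNA counted once for each hairpin it was listed under. HGC-27 SAHA 2 lay farthest from the mean of its group over annotated microRNAs, with an SD of its log2 deviations of 0.739 beside 0.517 and 0.353 in its replicates. Over the tested members this SD was 0.340 beside 0.301 and 0.279. There it lay near its replicates, at -11.5 on a first principal component holding 73.4% of the variance, beside -10.6 and -10.5. It exceeded 5 times every other library in 2 members, chr2_42384 and chr1_31531, and no other library did so in any. Levels are CPM, counts scaled to a common annotated microRNA total with TMM factors, and mean ± SD values are over n = 3 libraries.

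The name "without annotation" did not hold for every member. In 5 members all 12 counts were those of an annotated microRNA in the same table, and in 2 others they were nearly so. The table gives no sequence or position for a predicted entry, so the sequences below are those of the annotated microRNAs whose counts the members carried or followed. They are from RefSeq on GRCh38.p14, written 5′ to 3′ with the seed in capitals.
miR-24-3p: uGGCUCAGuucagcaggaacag
miR-675-3p: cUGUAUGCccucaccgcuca
miR-5010-3p: uUUUGUGUcucccauuccccag
miR-103a-3p: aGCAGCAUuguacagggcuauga
miR-1-3p: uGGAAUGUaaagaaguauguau
miR-664b-3p: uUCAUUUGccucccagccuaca
miR-548aq-3p: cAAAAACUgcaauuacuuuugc
miR-548am-3p: cAAAAACUgcaguuacuuuugu
The last pair share their seed. miR-24-3p has a locus at chr9:95086064-95086085 on the plus strand and one at chr19:13836289-13836310 on the minus strand. miR-675-3p lies at chr11:1996768-1996787 on the minus strand, within the gene of the imprinted long RNA H19. miR-5010-3p lies at chr17:42514267-42514288 on the plus strand, and miR-664b-3p at chrX:154768635-154768656 on the plus strand. miR-548aq-3p lies at chr3:185767847-185767868 and miR-548am-3p at chrX:16627019-16627040, both on the minus strand. miR-103a-3p and miR-1-3p each have a second locus, at chr20:3917541-3917563 and chr20:62554351-62554372 on the plus strand.

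The most abundant member, chr19_24997, had 147315 counts in all, against 149526 for miR-24-3p. In the order of the replicate numbers it had 15517, 11437 and 18713 counts in HGC-27 with SAHA, 15215, 16291 and 19092 in HGC-27 with DMSO, 6889, 8016 and 9790 in AGS with SAHA, and 10331, 10349 and 5675 in AGS with DMSO. In every library this was between 97.8% and 99% of the miR-24-3p count. Its name places it on chromosome 19, where MIR24-2 lies, but labels it 5p. The entry chr11_5081, labelled 5p, had the same 12 counts as miR-675-3p, 3550 in all, and its name also gives that microRNA's chromosome. The entry chr17_20176, labelled 5p, had 489 counts against 493 for miR-5010-3p, between 96.6% and 100% in each library, and again the same chromosome. In all 3 cases the name of the arm differed from that of the annotated microRNA.

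The other exact matches were small. chr2_40744 had the 62 counts of miR-664b-3p, chr3_44358 the 66 counts of miR-548aq-3p, chr8_68539 the 27 counts of miR-548av-3p and chr2_42384 the 54 counts of miR-153-3p. The names of chr3_44358 and chr2_42384 give a chromosome on which that microRNA lies. Those of chr2_40744 and chr8_68539 do not, as miR-664b-3p lies on chromosome X and miR-548av-3p on chromosome 18. The predicted chr4_48866 had the same counts as chr3_44358. All 54 counts of chr2_42384 fell in HGC-27 SAHA replicate 2. chr1_31531 had 125 CPM in that library and at most 16.1 CPM in the others. Whether the same reads were counted for an annotated and a predicted entry cannot be read from the table.

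For 192 members with at least 200 counts, the annotated microRNA with the steadiest ratio over the 12 libraries was found among 579 with at least 100 counts. The measure was the SD of the log2 ratio of counts, and its median over these members was 0.31. It was under 0.02 in 3 members, those described above, and under 0.1 in 6. Of 162 members whose nearest microRNA had a known position, 9 had it on the chromosome in their own name. chr5_56706 was the next nearest to an annotated microRNA, with an SD of 0.068 against miR-103a-3p and counts between 124.7% and 140.8% of it. One locus of that microRNA lies on chromosome 5, at chr5:168560904-168560926 on the minus strand. chr9_69739 followed miR-548am-3p with an SD of 0.076, and chr1_29761 followed let-7f-2-3p with an SD of 0.099. Their counts were 88.9% to 107.7% and 113.0% to 143.9% of those microRNAs.

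chr18_23168, chosen after its values were seen, followed a microRNA that was uneven within groups. miR-1-3p, a microRNA known for its abundance in heart and skeletal muscle, had 4216 counts in HGC-27 DMSO replicate 1 and 27 and 25 in the other two of that group. chr18_23168 had 3734, 20 and 16 in the same libraries. In HGC-27 with SAHA it had 82, 109 and 541 counts, in AGS with SAHA 1197, 2803 and 314, and in AGS with DMSO 602, 499 and 57. It was at 64.0% to 91.9% of miR-1-3p throughout, and the second nearest microRNA was far less steady, with an SD of 0.94 against 0.14. No group of 3 libraries was uniform. The SAHA difference was not called in HGC-27 (log2 fold change -2.29 ± 1.6 SE, adjusted p = 0.291) or in AGS (2.03 ± 1.6, adjusted p = 0.387, edgeR). One locus of miR-1-3p is on chromosome 18, at chr18:21829015-21829036 on the minus strand.

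**Figure D1:**
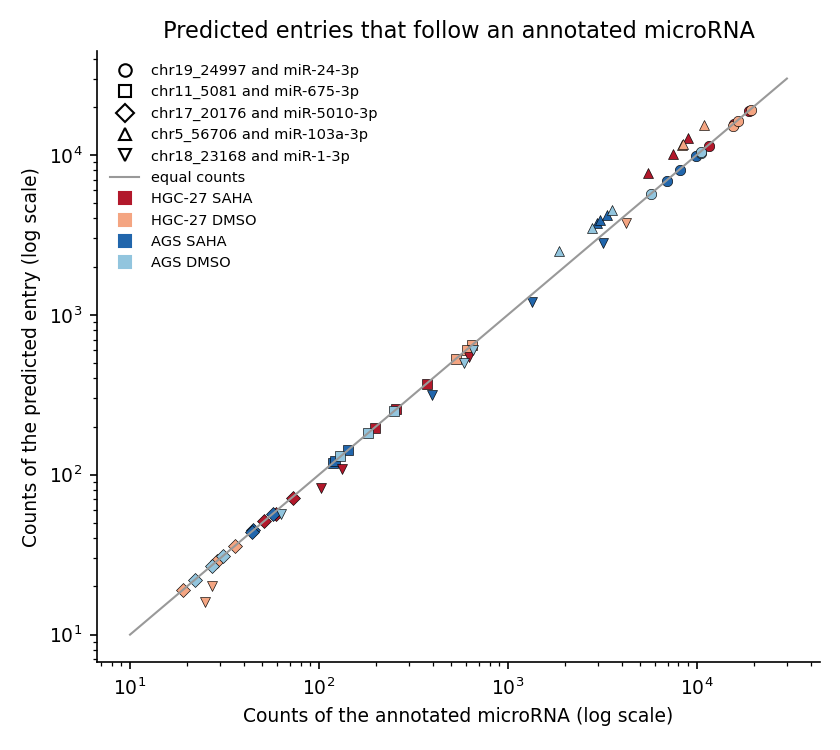
Counts of 5 predicted entries (vertical, log scale) against counts of the annotated microRNA each was nearest to (horizontal, log scale), 1 point per library, with marker shape for the pair, colour for the group and a line of equal counts. chr19_24997, chr11_5081 and chr17_20176 lie on the line, chr5_56706 runs parallel above it at 124.7% to 140.8% of miR-103a-3p, and chr18_23168 runs below it at 64.0% to 91.9% of miR-1-3p.

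Members also followed each other. Each of the 13 sets of predicted entries with the same counts held 2 names. chr8_67163 and chr8_67164, with consecutive numbers, had 21740 counts each, and chr7_61587 and chr7_61588 had 13386 each. In other sets the names gave different chromosomes, as in chr11_6161 and chr6_61271 with 4684 counts. Among 6441 pairs of members that could be compared, the SD of the log2 ratio had a median of 1.07. It was lowest for chr1_25771 and chrX_75828, at 0.0062, with totals of 6915 and 6895. The abundant chr4_50781 and chr1_29710 had an SD of 0.063, and chr1_26477 and chrX_74491 one of 0.086. The names of these pairs give different chromosomes.

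Totals ran from 20 to 147315 counts. The median total was 206.5 counts, 152 members had 99 counts or fewer, 114 had at least 1000 and 37 at least 10000, and the 10 most abundant held 49.1% of the members' counts. In CPM, the median of the mean over libraries was 5.40, with 62 members at 100 or more, 15 at 1000 or more and 83 under 1. Counts were listed in all 12 libraries for 216 members, while 10 were listed nowhere in HGC-27 and 5 nowhere in AGS. By name, 216 were 3p and 164 were 5p, and no hairpin had both arms, so arms of 1 hairpin could not be compared.

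The 8 most abundant members differed in pattern. chr19_24997 and chr5_56706 were lower in AGS. chr5_56706 had 2826, 2938 and 2957 CPM in HGC-27 with DMSO and 1264, 1169 and 1166 CPM in AGS with DMSO. All AGS libraries lay below all HGC-27 libraries, with a log2 fold change of -1.28 ± 0.093 SE (adjusted p = 8.2e-07, edgeR). It was not called for SAHA in either line. For chr19_24997 the difference was -0.36 ± 0.12 (adjusted p = 0.0272, edgeR), and this call was lost with no filter on low counts and without HGC-27 DMSO 2, AGS SAHA 1 or AGS DMSO 1.

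chr7_63369 was higher in AGS and flat under SAHA. It had 1778, 1879 and 1801 CPM in HGC-27 with DMSO, against 4632, 4443 and 4428 in AGS with DMSO, and 1981, 1799 and 1859 against 4432, 4549 and 4845 with SAHA. The 6 AGS libraries all lay above the 6 HGC-27 libraries. The log2 fold change between the lines was 1.31 ± 0.076 SE (adjusted p = 1.3e-07), and those for SAHA were 0.05 ± 0.075 in HGC-27 (adjusted p = 0.662) and 0.03 ± 0.075 in AGS (adjusted p = 0.751), all by edgeR.

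chr7_65472 was lower and chr4_50781 higher after SAHA in both lines. chr15_16222, chr9_71411 and chr9_69023 varied more within groups. chr15_16222 had 2993 ± 207 and 2258 ± 423 CPM in HGC-27 with SAHA and DMSO and 2884 ± 600 and 2068 ± 189 in AGS. Its difference in AGS was 0.48 ± 0.16 on the log2 scale (adjusted p = 0.0495, edgeR) and was no longer called in most alternatives, among them leaving out any 1 library but AGS SAHA 3. chr9_71411 had 2995 ± 576 and 2164 ± 85.8 CPM in HGC-27 with SAHA and DMSO (adjusted p = 0.0503, edgeR) and 2374 ± 488 and 1744 ± 272 in AGS (adjusted p = 0.0841). chr9_69023 had means of 2099, 2154, 1961 and 2112 CPM in the 4 groups and was called in no comparison.

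**Figure D2:**
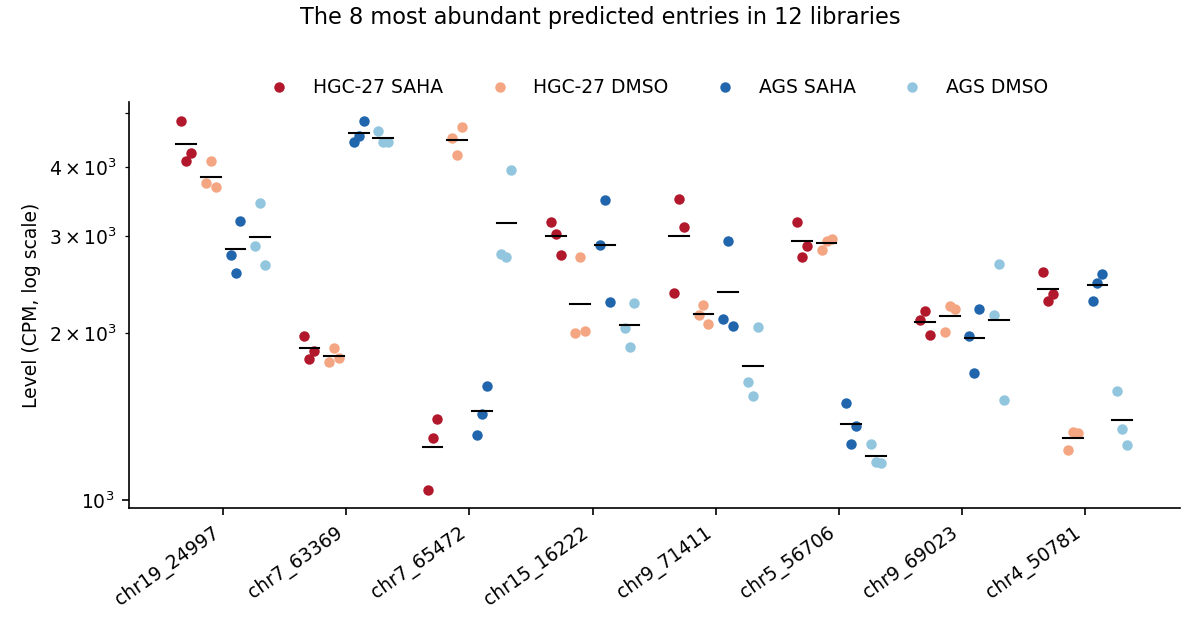
Level of the 8 most abundant predicted entries in CPM (vertical, log scale), 1 point per library, with a short line at the mean of each group of 3 and colour for the group. chr7_63369 has its 6 AGS points between 4428 and 4845 and its 6 HGC-27 points between 1778 and 1981, while chr7_65472 and chr4_50781 separate SAHA from DMSO in both lines.

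Likeness to annotated microRNAs was measured by Pearson's r of log2 CPM over the 12 libraries, which fall into 4 groups and share the library's depth. For chr19_24997 the nearest were miR-24-3p (r = 0.9999), miR-148a-3p (0.951) and miR-27a-3p (0.928). For chr7_63369 they were miR-3622a-5p (0.993), miR-3667-3p (0.990) and miR-378a-3p (0.986). For chr7_65472 they were let-7b-3p (0.981), miR-4521 (0.973) and miR-92a-1-5p (0.965). For chr15_16222 the highest values were lower, with miR-4301 (0.849), miR-767-5p (0.836) and miR-642a-5p (0.826) at the top. By the SD of the log2 ratio of counts, its nearest was miR-767-5p, at 0.174. Within groups the likeness was often weaker, with correlations of deviations from the group means of 0.9996 for chr19_24997 and miR-24-3p, 0.40 for chr7_63369 and miR-3622a-5p, and -0.43 for chr7_63369 and miR-3667-3p.

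Taken as a sum, the members were higher relative to annotated microRNAs in AGS with SAHA than in AGS with DMSO. The summed level was 52862, 58598 and 53240 CPM in AGS with SAHA and 44358, 43646 and 46685 in AGS with DMSO, so the groups did not overlap. In HGC-27 it was 48741, 47434 and 47749 CPM with SAHA and 45654, 45393 and 47200 with DMSO, again without overlap, with means of 47974 ± 682 and 46082 ± 976. With TMM factors over all entries the HGC-27 groups overlapped, at 45908 to 46389 CPM with SAHA and 44729 to 46774 with DMSO. As a share of all listed counts, predicted entries took 4.84% to 5.93% in AGS with SAHA and 3.65% to 3.89% in AGS with DMSO. In HGC-27 they took 4.03% to 4.09% with SAHA and 3.45% to 4.10% with DMSO. Listed counts hold an annotated microRNA once for each of its hairpins, so these are not shares of distinct counts. HGC-27 SAHA 1 had 4014267 listed counts, against 3246952 for distinct annotated names and 161840 for predicted entries. In AGS SAHA 1 these were 2756985, 2352490 and 135944. The size of the AGS difference moved with the scaling, from 48326 against 44029 CPM with TMM factors over all entries to 59874 against 42744 CPM with plain totals. No test was made, since the members were chosen by their counts. In bulk RNA, fewer cells with an RNA and less of it per cell cannot be told apart.

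Of the 380 members, 246 passed the filter on low counts and were tested, in a fit of the whole table of 854 entries with 608 annotated microRNAs. The other 134 had a median total of 33 and a highest total of 103. A member can pass this filter through the group in which it is high, so the counts that follow describe the tested members and not all 380. In at least 1 of the compared groups, 14 tested members were listed at 0 for SAHA in HGC-27, 2 for SAHA in AGS and 13 between the lines. With these set to their bounds, or to 0 where no fold is given, the median log2 fold changes below would be 0.28, 0.44 and 0.33.

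In HGC-27, 81 tested members were higher with SAHA and 20 lower, together 41.1%, beside 40.7% of all entries tested. By direction, 24.9% of all entries were higher and 15.8% lower. The median log2 fold change was 0.35 over the tested members, 0.14 over all entries and 0.08 over annotated microRNAs. The replicates of both groups did not overlap in 139 tested members, or 56.5%, beside 57.5% of all entries. By level, the 62 tested members at 100 CPM or more had 16 higher and 12 lower, and the 63 between 20 and 100 CPM had 26 higher and 2 lower. Annotated microRNAs at 100 CPM or more had 37 higher and 70 lower of 223, and those between 20 and 100 CPM 23 higher and 26 lower of 123. Without HGC-27 SAHA 2, 94 members were called in place of 101.

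Among abundant members, falls in HGC-27 were led by a set whose levels moved together. chr7_65472 had 4505, 4193 and 4722 CPM with DMSO and 1042, 1294 and 1399 with SAHA. chrX_74491 had 1893, 1776 and 2070 CPM with DMSO and 559, 639 and 691 with SAHA. chr1_26477 had 1005, 936 and 1159 CPM with DMSO and 297, 380 and 369 with SAHA. In each of the 3 every SAHA library lay below every DMSO library. The log2 fold changes were -1.84 ± 0.16 SE for chr7_65472 (adjusted p = 1.7e-05), -1.60 ± 0.17 for chrX_74491 (3.9e-05) and -1.57 ± 0.20 for chr1_26477 (1.2e-04), by edgeR. The ratio of chr7_65472 to chrX_74491 was steady, with a mean of 2.12 and an SD of its log2 of 0.123 over the 12 libraries. The pattern was not limited to predicted entries. For all 3 the nearest annotated microRNA by this SD was miR-4521, at 0.221 for chr7_65472, 0.153 for chrX_74491 and 0.155 for chr1_26477. The means of miR-4521 were 2525 CPM with DMSO and 955 with SAHA in HGC-27, and 2217 and 1111 CPM in AGS.

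Other members that fell in HGC-27 were chr2_37104, chr3_42664 and chr3_43461. chr2_37104 had 595, 538 and 585 CPM with DMSO and 152, 220 and 220 with SAHA, without overlap (log2 fold change -1.54 ± 0.16, adjusted p = 3.9e-05, edgeR). chr3_42664 fell from 193 ± 64.3 to 52.3 ± 6.43 CPM (-1.88 ± 0.47, adjusted p = 0.00795, edgeR). chr3_43461 fell from 17.4 ± 4.86 to 6.30 ± 0.793 CPM (-1.46 ± 0.40, adjusted p = 0.0125, edgeR), a call lost without HGC-27 DMSO 3.

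Rises in HGC-27 reached higher folds, from low levels. chr1_31729 had 0, 1.00 and 0.578 CPM with DMSO and 12.5, 7.17 and 7.02 with SAHA. Its groups did not overlap, and the log2 fold change was 3.98 ± 0.59 (adjusted p = 3.7e-04, edgeR), or 4.69 without HGC-27 DMSO 2. chr1_32313 rose from 6.95 ± 1.58 to 48.6 ± 7.62 CPM (2.81 ± 0.43, adjusted p = 4.3e-04, edgeR). chr17_21258 rose from 0.637 ± 0.587 to 5.25 ± 1.14 CPM (2.92 ± 0.57, adjusted p = 0.00202, edgeR), or by 3.70 without HGC-27 DMSO 3. The size was least settled where DMSO counts sat in 1 library. chr20_32709 was listed at 0.982, 0 and 0 CPM with DMSO and 8.43, 4.66 and 3.17 with SAHA, with a log2 fold change of 3.98 ± 0.83 (adjusted p = 0.00287, edgeR) that became 7.22 without HGC-27 DMSO 1. chr2_42518 had 1.96, 0 and 0 CPM with DMSO and 3.12, 3.95 and 8.61 with SAHA, and its value of 3.02 ± 0.94 (adjusted p = 0.024, edgeR) became 7.22 without HGC-27 DMSO 1. That call was lost without HGC-27 SAHA 3, HGC-27 DMSO 2 or HGC-27 DMSO 3, and without the last the value was 2.42.

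In AGS, 66 tested members were higher with SAHA and 12 lower, together 31.7%, beside 27.9% of all entries. Over all entries 18.4% were higher and 9.48% lower. The median log2 fold change was 0.44 over the tested members, 0.18 over all entries and 0.08 over annotated microRNAs. Replicates did not overlap in 102 tested members, or 41.5%, beside 39.3% of all entries. The 62 at 100 CPM or more had 24 higher and 6 lower, where the 223 annotated microRNAs at that level had 33 higher and 43 lower. The count of 78 calls fell to 43 without AGS SAHA 1, 41 without AGS SAHA 2, 46 without AGS DMSO 1 and 41 without AGS DMSO 2.

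The set that fell in HGC-27 fell in AGS as well. chr7_65472 had 2781, 2749 and 3952 CPM with DMSO and 1308, 1431 and 1605 with SAHA (log2 fold change -1.13 ± 0.16, adjusted p = 4.7e-04, edgeR). chrX_74491 fell from 1422 ± 367 to 735 ± 73.3 CPM (-0.95 ± 0.17, adjusted p = 0.00185, edgeR), and chr1_26477 from 733 ± 227 to 408 ± 32.7 CPM (-0.84 ± 0.19, adjusted p = 0.00889, edgeR). AGS DMSO 3 was the highest of its group in all 3 members, and no SAHA library reached the lowest DMSO library. chr2_37835 had 183, 140 and 173 CPM with DMSO and 59.8, 67.2 and 80.7 with SAHA (-1.25 ± 0.15, adjusted p = 2.2e-04, edgeR). In HGC-27, where its level was 8.73 ± 0.289 CPM with DMSO, it was -0.60 ± 0.18 (adjusted p = 0.0225, edgeR), a call lost, among others, with plain totals, with no filter on low counts, and without HGC-27 SAHA 2, SAHA 3 or any single HGC-27 DMSO library.

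chr17_21569 fell from 206 ± 72.4 to 88.8 ± 37.5 CPM in AGS (-1.21 ± 0.30, adjusted p = 0.0126, edgeR). chr21_35367 fell from 9.55 ± 1.05 to 2.89 ± 2.85 CPM (-1.69 ± 0.57, adjusted p = 0.049, edgeR). That last call was lost in 13 of the alternatives, among them leaving out any single AGS library other than SAHA 3, and without AGS SAHA 3 the value was -2.92.

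chr10_2985 rose in both lines. It had 12.5, 11.5 and 12.9 CPM in HGC-27 with DMSO and 69.7, 49.5 and 85.2 with SAHA, and 15.3, 8.99 and 14.0 CPM in AGS with DMSO and 96.3, 81.0 and 77.5 with SAHA. All 6 SAHA libraries lay above all 6 DMSO libraries. The log2 fold changes were 2.46 ± 0.24 in HGC-27 (adjusted p = 2.5e-05) and 2.73 ± 0.25 in AGS (3.7e-05), by edgeR. chr17_21650, at lower levels, rose from 1.89 ± 0.395 to 12.3 ± 4.88 CPM in HGC-27 (2.69 ± 0.41, adjusted p = 4.7e-04) and from 2.41 ± 1.36 to 16.0 ± 1.83 CPM in AGS (2.66 ± 0.42, adjusted p = 9.1e-04), by edgeR.

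chr10_173 and chr10_225 were also called higher in both lines, on few counts. chr10_173 was listed at 0 in all 3 AGS DMSO libraries and at 3.61, 4.82 and 4.56 CPM with SAHA. Against a floor of 3 counts per library this was at least 4.01-fold higher (adjusted p = 0.00889, edgeR). In HGC-27 chr10_173 had 5.62, 0.717 and 4.08 CPM with SAHA and 0, 1.00 and 0.386 with DMSO, so these groups overlapped. chr10_225 had 31 counts over the AGS SAHA libraries and 2 over the AGS DMSO libraries, a ratio of 15.6 with an exact 95% interval of 3.97 to 135 that covers counting error only. Both were sensitive to single libraries. Among other alternatives, the AGS call of chr10_225 was lost without HGC-27 SAHA 3 or any 1 AGS library. In HGC-27 its call (2.88 ± 0.89, adjusted p = 0.0236, edgeR) was lost, among others, without SAHA 3, DMSO 1 or DMSO 3, and that of chr10_173 (2.86 ± 0.88, adjusted p = 0.0278, edgeR) without SAHA 1, SAHA 3, DMSO 1 or DMSO 3. Without HGC-27 DMSO 2 the 2 values became 4.71 and 3.89, and without AGS DMSO 1 the AGS value of chr10_225, 3.83, became 6.61.

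In AGS the largest rises also held chr9_69155, chr8_67446, chr1_31729 and chr11_3164. chr9_69155 had 3.90, 2.66 and 1.87 CPM with DMSO and 17.7, 13.8 and 14.3 with SAHA (log2 fold change 2.39 ± 0.33, adjusted p = 4.7e-04, edgeR). In HGC-27 it rose from 3.69 ± 1.26 to 11.2 ± 1.03 CPM (1.59 ± 0.32, adjusted p = 0.00211, edgeR). chr8_67446 had 42.6, 27.3 and 44.9 CPM with DMSO and 221, 260 and 90.8 with SAHA (2.32 ± 0.33, adjusted p = 5.3e-04, edgeR). AGS SAHA 3 was the lowest of the treated libraries and still above the controls. chr1_31729 rose from 4.68 ± 1.62 to 21.1 ± 2.03 CPM (2.14 ± 0.48, adjusted p = 0.00757, edgeR).

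Some abundant members rose by smaller steps. chr4_50781 had 1230, 1326 and 1322 CPM in HGC-27 with DMSO and 2585, 2292 and 2354 with SAHA, and 1573, 1343 and 1259 CPM in AGS with DMSO and 2288, 2471 and 2564 with SAHA. The SAHA libraries of both lines lay above all DMSO libraries, with log2 fold changes of 0.90 ± 0.10 (adjusted p = 5.5e-05) and 0.81 ± 0.10 (2.2e-04), by edgeR. Its close follower chr1_29710 had 0.97 ± 0.11 and 0.74 ± 0.11. chr9_71920, chosen after its values were seen, had 304 ± 24.8 CPM in HGC-27 with DMSO and 1108 ± 121 with SAHA, and 485 ± 72.9 and 1682 ± 143 in AGS. Its log2 fold changes were 1.87 ± 0.14 (adjusted p = 5.1e-06) and 1.79 ± 0.14 (8.4e-06), by edgeR. Among 21 tested members that reached 1000 CPM in some group, 7 were higher and 5 lower in HGC-27, and 10 were higher and 3 lower in AGS. Over all entries tested, at any level, 24.9% were higher and 15.8% lower in HGC-27, and 18.4% and 9.48% in AGS. Annotated microRNAs that reached 1000 CPM were not counted, so these member counts have no background at their own level.

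Across both lines, 41 tested members were called higher in each, 7 lower in each and 2 in opposite directions. Another 51 were called in HGC-27 alone, 28 in AGS alone and 117 in neither. Higher in each line were thus 16.7% of the tested members, beside 12.2% of all entries, and lower in each 2.85%, beside 7.14%. Of the members higher in HGC-27, 50.6% were also higher in AGS, beside 48.8% over all entries, and of those higher in AGS, 62.1% were also higher in HGC-27, beside 66.2%. A call in 1 line alone does not show that the responses differ, which was tested separately.

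**Figure D3:**
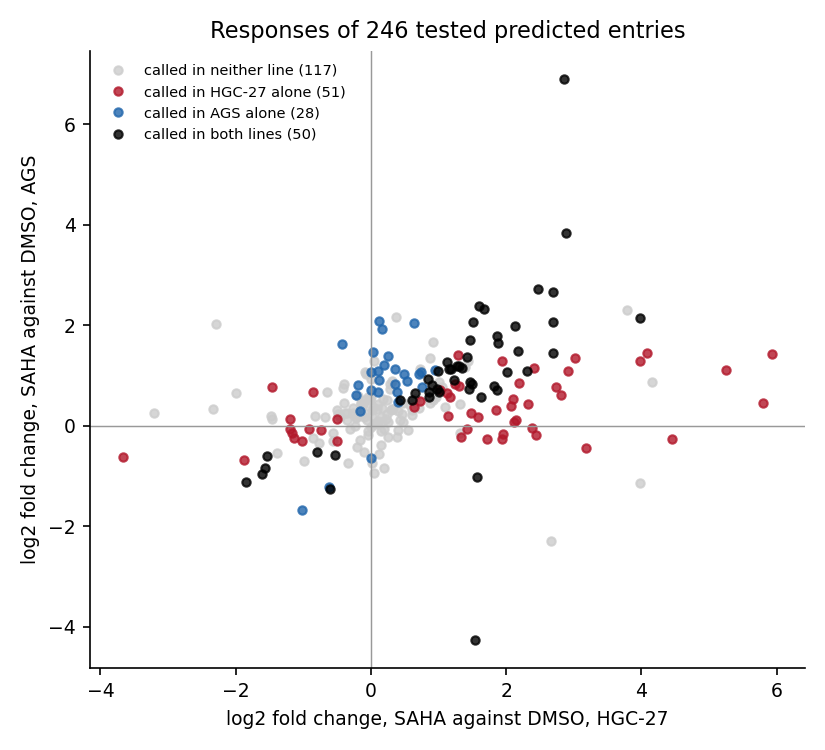
Log2 fold change of SAHA against DMSO in HGC-27 (horizontal) and AGS (vertical), 1 point for each of the 246 tested predicted entries, coloured by the line in which the call was made. Most of the 50 entries called in both lines lie in the upper right, 41 higher in both, 7 lower in both and 2 opposite; points far from 0 at the right and the top include entries listed at 0 under DMSO, whose position depends on the fit.

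Under DMSO the lines differed in more members than SAHA changed in either. AGS was higher for 93 tested members and lower for 41, together 54.5%, beside 48.1% of all entries. Over all entries 28.6% were higher and 19.6% lower. The median log2 fold change was 0.33 over the tested members, 0.07 over all entries and 0.04 over annotated microRNAs. Replicates did not overlap in 151 tested members, or 61.4%, beside 57% of all entries.

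The strongest contrasts were members found in AGS and hardly in HGC-27. Using a level of at least 5 CPM in every library of 1 line and under 1 CPM in every library of the other, 5 members belonged to AGS and none to HGC-27. The same count was not made over all entries, and such contrasts were not limited to members. The annotated miR-3667-3p had means of 0 CPM in both HGC-27 groups, and 20.8 and 15.3 CPM in AGS with SAHA and DMSO. chr10_2752 was listed at 0 in all 6 HGC-27 libraries and at 136, 114 and 109 CPM in AGS with DMSO, at least 173.6-fold higher against a floor of 3 counts per library (adjusted p = 3.0e-07, edgeR). With SAHA it had 68.2, 71.0 and 91.1 CPM in AGS. chr4_50702 was also at 0 throughout HGC-27, with 36.7, 72.9 and 41.6 CPM in AGS with DMSO, at least 73.2-fold higher (adjusted p = 1.2e-05, edgeR).

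chr1_27665 and chr11_6161 had similar levels in AGS. chr1_27665 had 0.491, 0 and 0.386 CPM in HGC-27 with DMSO and 329, 191 and 176 in AGS with DMSO (log2 fold change 9.43 ± 0.48, adjusted p = 3.2e-07, edgeR). chr11_6161, whose counts another predicted entry named for chromosome 6 shares, had 0.491, 0.753 and 0.578 CPM against 284, 283 and 161 (8.57 ± 0.50, adjusted p = 1.3e-07, edgeR). In AGS with SAHA their means were 277 ± 18.4 and 278 ± 69.6 CPM. chr21_34479 was at 0 in HGC-27 with DMSO and at 10.6, 13.7 and 10.3 CPM in AGS, at least 16.7-fold higher (adjusted p = 3.6e-06, edgeR). chr10_1609 was at 0 against 7.52, 14.0 and 5.62 CPM, at least 13.1-fold higher (adjusted p = 7.3e-04, edgeR).

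Members of higher level, chosen after their values were seen, had large contrasts too. chr7_64756 had 3.86 ± 0.666 CPM in HGC-27 with DMSO and 719 ± 43.6 in AGS with DMSO (7.52 ± 0.23, adjusted p = 1.5e-09, edgeR). chr1_26581 had 3.50 ± 1.95 against 369 ± 89.5 CPM (6.68 ± 0.37, adjusted p = 1.0e-07, edgeR), and rose to 801 ± 54.1 CPM in AGS with SAHA (1.12 ± 0.28, adjusted p = 0.0126, edgeR). chr13_12158 had 51.4 ± 7.55 against 472 ± 88.4 CPM (3.20 ± 0.27, adjusted p = 2.5e-06, edgeR).

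Members lower in AGS had smaller contrasts. chr8_67271 had 9.08, 6.78 and 10.4 CPM in HGC-27 with DMSO and 1.11, 0.666 and 0 in AGS (log2 fold change -3.65 ± 0.53, adjusted p = 3.7e-04, edgeR), or -4.43 without AGS DMSO 1. chr3_46686 had 23.5 ± 2.43 against 4.02 ± 1.85 CPM (-2.51 ± 0.45, adjusted p = 7.8e-04, edgeR), and chrX_75051 9.75 ± 1.60 against 2.00 ± 1.06 CPM (-2.20 ± 0.48, adjusted p = 0.00265, edgeR). chr6_61390, chr8_67673 and chr18_22860 had differences of -1.96, -1.84 and -1.80, with means of 13.9, 14.5 and 13.4 CPM in HGC-27 with DMSO. In all 6 the AGS DMSO libraries lay below the HGC-27 DMSO libraries.

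**Figure D4:**
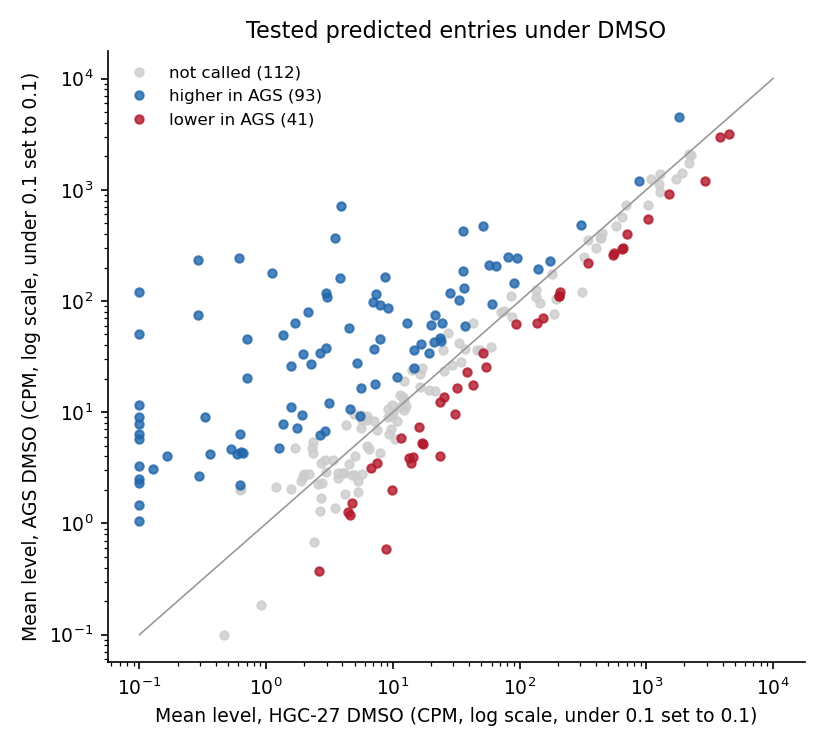
Mean level of the 246 tested predicted entries in HGC-27 with DMSO (horizontal) and AGS with DMSO (vertical), both in CPM on log scales with values under 0.1 drawn at 0.1, coloured by the call between the lines. The 93 entries higher in AGS reach far above the diagonal, including those at 0 in HGC-27, while the 41 lower in AGS stay nearer to it.

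A difference between the SAHA responses of HGC-27 and AGS was called for 28 tested members, 6 with a higher response in AGS and 22 with a lower one. This is 11.4%, beside 5.39% of all entries, of which 1.52% were higher and 3.86% lower. The count fell to between 8 and 15 when any library other than HGC-27 SAHA 2, AGS SAHA 3 or AGS DMSO 3 was left out, and was 20, 20 and 40 without these. The call of chr6_60567 was among the steadiest. It had 3.93, 15.1 and 8.67 CPM in HGC-27 with DMSO and 55.6, 45.9 and 48.2 with SAHA, but 91.3, 101 and 66.4 CPM in AGS with DMSO and 69.5, 62.0 and 95 with SAHA. The AGS groups overlapped and the HGC-27 groups did not. The difference was -2.63 ± 0.51 on the log2 scale (adjusted p = 0.0191, edgeR), a call lost without HGC-27 DMSO 3.

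chr3_46163 moved in opposite directions, from 2.12 ± 0.706 to 6.42 ± 0.907 CPM in HGC-27 and from 78.8 ± 33.5 to 39.0 ± 11.7 CPM in AGS. The log2 fold changes were 1.57 ± 0.39 (adjusted p = 0.00779) and -1.02 ± 0.32 (0.0349), and the difference was -2.58 ± 0.50 (0.0191), by edgeR. The difference was not called without HGC-27 DMSO 1 or with a replicate block. The AGS fall was not called without AGS SAHA 1, SAHA 2, DMSO 1 or DMSO 2, with plain totals or with a replicate block. The other member called in opposite directions was chr8_67271, which rose from 8.76 ± 1.84 to 25.5 ± 3.96 CPM in HGC-27 (1.54 ± 0.39, adjusted p = 0.0126, edgeR) and in AGS was listed at 0 in all SAHA libraries and at 1.11, 0.666 and 0 CPM with DMSO. Its AGS levels rest on few counts, near or under the floor of 3 counts per library, so no fold is given there. Among other alternatives, the AGS call was lost without any 1 AGS SAHA library, AGS DMSO 1 or AGS DMSO 2, and the HGC-27 call was lost without HGC-27 DMSO 2.

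By the chromosome in the name, members were spread over 24 chromosomes, with 40 on chromosome 1, 28 on chromosome 2, 26 on chromosome 10 and 22 each on chromosomes 5 and 8. On some chromosomes most of the summed level lay in 1 entry. Chromosome 7, with 12 members, held 13.7% of the members' summed level, and 48.1% of that lay in chr7_63369. Its sum was 3706 CPM in HGC-27 with SAHA, 6753 in HGC-27 with DMSO, 7447 in AGS with SAHA and 8698 in AGS with DMSO. In HGC-27, chr7_63369 was flat under SAHA, while chr7_65472 had means of 4474 CPM with DMSO and 1245 with SAHA. On chromosome 5, 91.0% of the sum lay in chr5_56706, on chromosome 21 92.7% lay in chr21_35391, and on chromosome 19 81.1% lay in chr19_24997. Chromosome 10, with 26 members, held 0.73%, and only 16.5% of that lay in its most abundant member, chr10_2432.

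**Figure D5:**
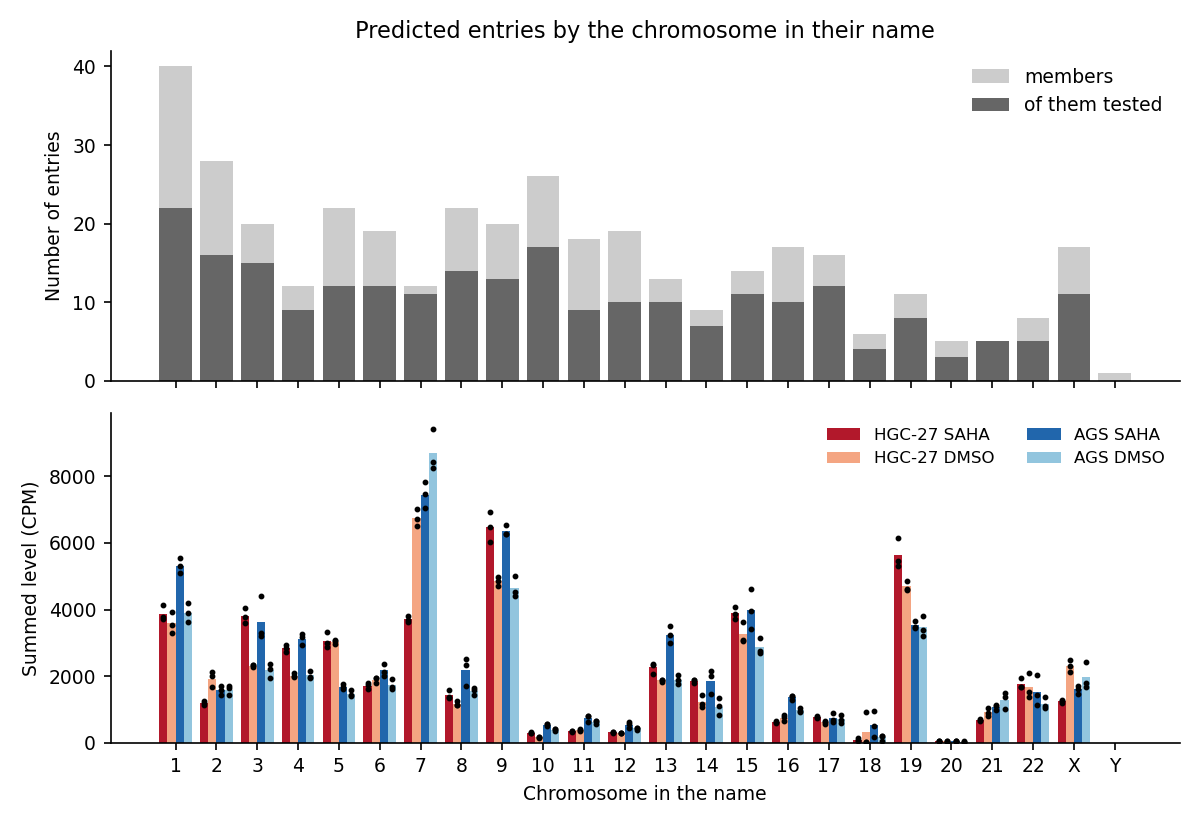
Upper panel, number of predicted entries by the chromosome in their name (light bars) and of them those tested (dark bars). Lower panel, summed level in CPM per chromosome, with bars for group means, points for the 3 libraries of a group and no level drawn for chromosome Y. Chromosome 1 has the most entries, 40, while chromosome 7 has the highest level in AGS from 12 entries.

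By arm, which was not compared by a test, the values were as follows. In HGC-27 with SAHA, 33 of 100 tested 5p members were higher and 7 lower with a median of 0.38, and 48 of 146 tested 3p members were higher and 13 lower with a median of 0.30. In AGS the counts were 30 and 6 with a median of 0.44, and 36 and 6 with a median of 0.45. Between the lines under DMSO, 36 5p members were higher in AGS and 20 lower with a median of 0.16, and 57 3p members were higher and 21 lower with a median of 0.38. Over all entries, of either arm, 24.9% were higher and 15.8% lower with SAHA in HGC-27, and 18.4% and 9.48% in AGS. Between the lines the shares over all entries were 28.6% and 19.6%. Annotated microRNAs were not counted by arm.

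Annotated entries with an unusual origin were set beside the members. Of 7 tested microRNAs known to be made without Drosha, 2 were higher and none lower in each line after SAHA, with medians of 0.24 in HGC-27 and 0.26 in AGS. Of 11 tested entries that overlap transfer, nucleolar or other small RNAs, 2 were higher and 3 lower in HGC-27 with a median of 0.10, and 3 were higher and 2 lower in AGS with a median of 0.10. In AGS against HGC-27 under DMSO the counts were 0 and 1 of 7, and 1 and 0 of 11, and none of these entries was called for the difference between responses.

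All 9 gut epithelial microRNAs of a marker list, such as miR-192-5p and the miR-200 family, were tested. Their summed level was 6682 to 7003 CPM in HGC-27 with SAHA, 1572 to 2746 with DMSO, 5626 to 6859 in AGS with SAHA and 2924 to 8024 with DMSO. The summed level of 5 microRNAs of fibroblasts and smooth muscle was 625 to 2057, 149 to 1138, 1341 to 1966 and 558 to 3504 CPM in the same order, of 6 of blood cells 48.7 to 440, 39.1 to 247, 118 to 226 and 187 to 376 CPM, and of 6 of muscle, liver and neurons 139 to 3167, 39.5 to 1162, 252 to 1563 and 141 to 298 CPM. No list was at 0 in any group, and their part in the members' values was not tested.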

How the data were processed

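Small RNA libraries of 2 cell lines with SAHA or DMSO were made from total RNA with a kit for small RNAs and selected by size, per the labels' protocols. Per the submitters' processing notes, Novoalign 2.07.11 and cutadapt were used. How loci were predicted and reads counted, and the genome build, are details not given in the sources used here. Deposited files hold whole-number counts per entry, as deposited, and a score, the authors' own scaling of these counts rounded to whole numbers, which was not used. Blank counts were read as 0, and the smallest listed count was 2.

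One table was fitted, with 1906 annotated mature names (the hairpin with the highest total standing for each) and the distinct sets of predicted counts. Library sizes and TMM factors came from annotated microRNAs, so a level is relative to them. filterByExpr over the 4 groups left 854 entries. edgeR 4.0.16 in R 4.3.3 gave quasi-likelihood tests on 1 fit of 12 libraries, adjusted by Benjamini-Hochberg over the 854, with calls at an adjusted p under 0.05. The SE is the absolute log2 fold change over the square root of F. The fit was also run on simulated counts that held no difference between the lines under DMSO, and its results are not given here. DESeq2 1.42.0, other scalings and filters, a replicate block and leaving out libraries were alternatives. Intervals and floors (3 counts) cover counting error only, without molecular identifiers.

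Named entries were the 8 most abundant, up to 6 calls per direction and comparison by fold change (with replicates that did not overlap and a mean of 5 CPM or more in 1 group; overlap was allowed for the difference between responses), up to 4 per direction called in both lines, those at the threshold, and the 3 annotated microRNAs most like each of the 4 most abundant. Other names were picked after seeing their values. The members, lists and tests were chosen with earlier results of these data known.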

Additional observations from a re-analysis of the deposited data

Results flagged for a closer look

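The responses of both lines to SAHA differed by edgeR's interaction test in 13 named members (adjusted p between 0.0191 and 0.0491), and each value here is the AGS log2 fold change minus that of HGC-27. It was positive for chr10_2358 (1.14), chr11_3164 (1.97), chr16_17709 (0.99), chr2_37104 (0.94), chr3_43461 (2.23) and chr4_50296 (0.84). chr10_2358 rose from 17.7 ± 2.38 to 46.7 ± 5.53 CPM in AGS and had 42.5 ± 7.39 and 50.9 ± 0.11 CPM in HGC-27 with DMSO and SAHA. chr11_3164 rose from 4.01 ± 0.57 to 17.2 ± 7.84 CPM in AGS and had 5.01 ± 0.551 and 5.45 ± 0.407 CPM in HGC-27. chr16_17709 rose from 28.3 ± 2.58 to 49.5 ± 6.73 CPM in AGS and had 34.2 ± 4.90 and 30.0 ± 2.70 CPM in HGC-27. chr4_50296 fell from 703 ± 68.7 to 372 ± 65.8 CPM in HGC-27 and had 398 ± 66.0 and 378 ± 13.2 CPM in AGS. chr2_37104 fell in HGC-27, and its smaller fall in AGS was not called with plain totals or without AGS SAHA 1 or AGS DMSO 3. chr3_43461 fell in HGC-27, a call lost without HGC-27 DMSO 3. All 6 of these differences were lost in 13 to 16 of up to 22 alternatives.

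The value was negative for chr1_32313 (-2.21), chr3_46163 (-2.58), chr6_60567 (-2.63), chr9_70916 (-3.61), chr21_34479 (-4.71), chr2_39577 (-5.35) and chr8_67271 (-5.80). The last 3 were listed at 0 in all libraries of 1 group, so their size depends on the fit and is no bound. chr2_39577 had 3.12, 0.717 and 2.04 CPM in HGC-27 with SAHA, at least 2.84-fold above the floor, and 10.8 ± 5.38 and 7.89 ± 3.72 CPM in AGS with SAHA and DMSO. chr9_70916 had 3.02 ± 0.27 CPM in HGC-27 with SAHA, 0.292 ± 0.258 with DMSO, and 55.7 ± 23.7 and 75.3 ± 27.7 CPM in AGS. chr21_34479 had only 2, 2 and 4 counts in HGC-27 with SAHA and 0 in each library with DMSO, where the smallest listed count was 2. The call was lost in 1 alternative for chr6_60567, 2 for chr3_46163, 3 for chr9_70916, 4 for chr21_34479 and 10 to 12 for the other 3.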

How the results depend on the processing

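No called value of a named member changed sign under any alternative that was run. In HGC-27 the count of called members lay between 79 and 114 when 1 library was left out, in AGS between 41 and 74, for the lines under DMSO between 114 and 150, and for the difference between responses between 8 and 40. That last count, 28, was 14 with plain totals (1 higher and 13 lower) and 15 without the library of each group farthest from its mean, an alternative chosen after seeing the data. With TMM over all entries it was 25 (3 and 22), and with DESeq2 41 (14 and 27). The summed level of the members was 46081, 49143 and 49459 CPM in HGC-27 with SAHA under TMM over all entries, plain totals and all copies kept. It was 43636 and 47297 CPM in HGC-27 with DMSO under the last 2, 48326 and 59874 CPM in AGS with SAHA under the first 2, and 42744 CPM in AGS with DMSO under plain totals. Leaving out 1 library gave 47591 to 48245, 45524 to 46427, 53051 to 55919 and 44002 to 45522 CPM in these groups. The cause of these changes was not tested. Plain totals raised the median annotated log2 fold change from 0.08 to 0.19 in HGC-27 and to 0.26 in AGS, and that of the tested members to 0.47 and 0.65. The replicate block left 95, 66, 133 and 5 calls. Deviations of libraries with the same number correlated between -0.28 and 0.44. Libraries with different numbers were not compared in this way, so whether the numbers pair the libraries cannot be told. Depth limits the 134 members that were not tested.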
